A study of Mus musculus with 6 samples.

Results

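The genes described here are the aryl hydrocarbon receptor Ahr, its partner and repressor, and 6 genes of the response to foreign chemicals. The 9 genes, Ahr, Ahrr, Arnt, Tiparp, Cyp1a1, Cyp1b1, Gstm1, Gsta3 and Ephx1, were taken by symbol from a table of 19386 mouse genes, and all 9 were listed there. They were measured by RNA sequencing in bone marrow-derived macrophages, cells grown for 11 days from marrow freed of red cells in medium with L929 supernatant, which supplies the macrophage growth factor. All mice were wild-type C57BL/6. One group of 3 libraries came from mice exposed to cigarette smoke and the other group of 3 from mice kept in room air. The length and dose of exposure and the age of the mice are not given in the labels. Nor is it stated that each library came from a separate mouse, so the p-values measure a spread between libraries and not between mice. The table of genes also holds a mean over 24 libraries. Whether its standard errors and p-values drew on the 18 libraries not analysed here is not stated. The protocols name no treatment of the cultured cells with smoke, so the comparison is of cells grown from exposed and unexposed animals.

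The aryl hydrocarbon receptor is a transcription factor that waits in the cytoplasm with heat shock protein 90 until it binds a ligand such as a polycyclic hydrocarbon of smoke or a tryptophan breakdown product. It then enters the nucleus, pairs with Arnt and binds DNA at the xenobiotic response element, whose core is GCGTG. Cyp1a1 and Cyp1b1, which oxidize aromatic hydrocarbons, and the feedback genes Ahrr and Tiparp are among its best known targets. Gstm1, Gsta3 and Ephx1 act on the reactive products, by joining them to glutathione or by opening epoxides.

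The promoters of the 4 receptor targets are shown because the receptor's core motif is the feature they are known to share. Each line gives a stretch of the promoter from RefSeq (GRCm38.p6), read 5′ to 3′ on the strand of the gene, with capitals marking GCGTG or, where the core lies on the other strand, its reverse complement CACGC.
Ahrr, chr13:74292334-74292458, minus strand: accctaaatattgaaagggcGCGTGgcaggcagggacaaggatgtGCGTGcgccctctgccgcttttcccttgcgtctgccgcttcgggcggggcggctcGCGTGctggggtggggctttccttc
Tiparp, chr3:65528257-65528301, plus strand: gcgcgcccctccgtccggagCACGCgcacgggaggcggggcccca
Cyp1a1, chr9:57697539-57697583, plus strand: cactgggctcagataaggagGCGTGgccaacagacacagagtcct
Cyp1b1, chr17:79715113-79715157, minus strand: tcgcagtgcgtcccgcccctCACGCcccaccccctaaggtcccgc

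In windows from 250 bases before to 50 bases after each gene start, GCGTG was searched on both strands. Of the members, 8 matched a promoter in the RefSeq table, and 6 of these held the core, namely the 4 targets shown, Arnt and Gstm1. The core is common: of all 27025 gene symbols in the table, 35.2% had a promoter that held it, or 32.4% of the 32851 promoters. The Ahrr promoter held 3 copies, at 107, 82 and 27 bases before the start, and the last was the only match among the members to the longer form TNGCGTG, which contains the core and was found for 5.84% of symbols and in 5.07% of promoters. The antioxidant response element core TGACNNNGC, known as a binding sequence of the oxidative stress factor Nrf2, was found on either strand in the promoters of Arnt and Gsta3, against 14.0% of all symbols and 12.4% of all promoters. The well-studied enhancer of Cyp1a1 lies farther upstream than this window.

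No member passed the test between the groups. An adjusted p was given for 8 of the 9 members in the authors' deposited table, which comes from DESeq2, and none of the 8 was under 0.05, where 7.69% of 12082 genes tested were (4.15% higher and 3.53% lower after smoke). The count of members called was also 0 at an adjusted p under 0.1 (12.8% of all genes) or 0.01 (3.03%), with adjustment over every gene with a p (3.55%) or over genes averaging 50 or more over 24 libraries (10.7%), with the median fold change removed (7.66%), and with the trend in GC content and transcript length removed (1.27%). None of the 9 had an unadjusted p under 0.05 either, the lowest being 0.0866 for Cyp1b1, while 15.0% of the 19373 genes with a p did, and 22.8% of those with an adjusted p. Of the 8, 4 had a positive and 4 a negative log2 fold change, and their median in the authors' deposited table was 0.05, beside -0.003 over all genes tested. The test was not equally fine for all of them: the standard error of the log2 fold change ran from 0.13 for Arnt to 1.56 for Cyp1b1 in the authors' deposited table, and was above the median of 0.21 over tested genes for 7 of the 8. Fewer cells that express a gene and less of its RNA per cell cannot be told apart in these bulk libraries.

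The authors' deposited table gives the means of each group and not the value of each library. These means are of counts divided by a size factor, which scales each library by its depth, so a low mean can be only the sum of whole reads, each worth a fixed step in its library. In each group 3 such steps explained every one of 6303 room air means and 5910 smoke means above 0 and up to 5, each by a single set of whole reads within a tolerance set by the rounding of the printed values. The steps gave size factors of 2.73, 2.58 and 1.67 for the room air libraries, here called A, B and C, and of 3.42, 1.06 and 0.662 for smoke libraries A, B and C. The letters follow depth only, and which replicate number each has is unknown. Smoke library C was thus the shallowest. Between means of 10 and 20, 40.4% of room air and 99.9% of smoke values still had a single solution. Reads of each library were recovered in this way for Ahr, Cyp1a1, Cyp1b1 and Gsta3. The other members were too abundant.

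Markers of the labelled cell type were high. All 12 macrophage markers, among them Csf1r and Adgre1, were at 401 to 23168 normalized counts in room air and 348 to 24772 after smoke in the authors' deposited table. Of these 12, 1 was called, the pan-leukocyte gene Ptprc, which is named after its values were seen and which fell by 0.55 on the log2 scale of the authors' deposited table (SE 0.13, adjusted p 0.00196). None of the 6 T and NK cell markers, the 7 mast cell markers or the 6 hepatocyte and airway epithelium markers was listed. Of the neutrophil, B cell, erythroid, endothelial, dendritic and megakaryocyte lists, at most 1 marker each reached a mean of 10 over both groups. Kdr of the endothelial list had 260.2 normalized counts in room air and 232.7 after smoke, and Ighm of the B cell list 139.3 and 118.5. Pf4 of the megakaryocyte list had 37.9 and 43.5, and Mmp8 of the neutrophil list 14.3 and 20.5. None of these was called. Of the dendritic cell list the marker above 10 was Itgax, a gene that macrophages also express, at 31.7 normalized counts in room air and 107.8 after smoke in the authors' deposited table (adjusted p 0.0571). The other 4 dendritic markers listed had means of at most 1.02, and Xcr1, Siglech and Clec9a had no read after smoke. The 9 stromal and fibroblast markers were low but uneven: recovered reads summed to 133.5 normalized counts in room air library A against 9.29 and 4.2 in B and C, and to 22.0, 7.52 and 4.53 in smoke libraries A, B and C. Lum and Lepr had no read in room air.

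The receptor itself was weakly expressed. For Ahr (ENSMUSG00000019256.17, chromosome 12, 35497974 to 35535038, minus strand, GRCm38) the authors' deposited table gives a mean of 16.0 normalized counts in room air and of 18.4 after smoke. Recovered reads of Ahr numbered 41, 20 and 42 in room air libraries A, B and C, which are 15.0, 7.74 and 25.2 normalized counts, and 115, 7 and 10 in smoke libraries A, B and C, which are 33.7, 6.58 and 15.1. The groups overlapped, with the highest and the lowest value both in the smoke group. The group values were 16.0 ± 8.77 (SD, n = 3) and 18.4 ± 13.8 (SD, n = 3), and an exact two-sided permutation test gave p = 0.9, where 0.1 is the smallest value that 3 against 3 libraries allow. The deposited DESeq2 fit of Ahr in the authors' deposited table has a log2 fold change of 0.31 (SE 0.51, adjusted p 0.781), with a 95% interval of the fold from 0.621 to 2.48. The log2 ratio of the recovered means, with 1 added to each, was 0.19, and its direction turned when single libraries were left out. Without room air library B this ratio was -0.12, and without smoke library A it was -0.52.

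Arnt, the partner without which the receptor does not bind its element, was the most precisely measured member. The authors' deposited table has Arnt (ENSMUSG00000015522.18, chromosome 3, 95434388 to 95497240, plus strand) at 338.1 normalized counts in room air and 297.8 after smoke. The authors' deposited table puts its log2 fold change at -0.16 (SE 0.13, adjusted p 0.506). The 95% interval of its fold, 0.751 to 1.07, leaves room for a decrease to 0.751 of the room air level but for little increase.

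The feedback genes did not pass the test. Ahrr (ENSMUSG00000021575.16, chromosome 13, 74211118 to 74292331, minus strand), the repressor that resembles the receptor and competes for Arnt, stood at 37.7 normalized counts in room air and 46.8 after smoke by the means of the authors' deposited table. The fit in the authors' deposited table puts it at 0.35 on the log2 scale (SE 0.56, adjusted p 0.775), with a fold interval of 0.595 to 2.74. The room air mean of Ahrr could be made by 4 sets of whole reads and the smoke mean by 2, so no library values are given for it. Tiparp, an ADP-ribosyltransferase induced by the receptor that limits its activity (ENSMUSG00000034640.9, chromosome 3, 65528410 to 65555518, plus strand), stood at 266.6 and 217.0 by the same means of the authors' deposited table. Its log2 difference in the authors' deposited table is -0.29 (SE 0.30, adjusted p 0.62), with a fold interval of 0.542 to 1.23. Exons of Tiparp and of Ahr overlap a gene on the opposite strand each, 4931440P22Rik and Gm48236. The library kit keeps strand, but whether counting used it is not given in the sources used here.

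Cyp1a1, the most inducible target of the receptor in many tissues (ENSMUSG00000032315.6, chromosome 9, 57687928 to 57703824, plus strand), was close to absent. Its mean was 0 in room air and 0.195 normalized counts after smoke in the authors' deposited table. Recovered reads were 0 in all 3 room air libraries and 2, 0 and 0 in smoke libraries A, B and C. A count of 0 allows up to 3 reads in the room air group, or 0.43 normalized counts over its libraries. Both groups were at or under that floor of 3 reads, so no fold is given, and Cyp1a1 had no adjusted p in the authors' deposited table. Its mean over 24 libraries in the authors' deposited table, 0.248, was as low. Of the 50-base stretches of its longest transcript, 3.55% also occur in Cyp1a2, which was not listed.

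Cyp1b1, the related enzyme that fibroblasts and other mesenchymal cells are known to express, had the largest fold change and the largest standard error of the 8 members with an adjusted p. Cyp1b1 (ENSMUSG00000024087.3, chromosome 17, 79701537 to 79715061, minus strand) had 15.5 normalized counts in room air and 2.15 after smoke by the means of the authors' deposited table. The authors' deposited table estimates a log2 difference of -2.67 (SE 1.56, adjusted p 0.303), with a fold interval of 0.0189 to 1.31. Recovered reads of Cyp1b1 numbered 120, 5 and 1 in room air libraries A, B and C, which are 44.0, 1.94 and 0.6 normalized counts, and 22, 0 and 0 in smoke libraries A, B and C, which are 6.44, 0 and 0. A single library thus held 94.6% of the normalized counts of the room air group, and a single library held all reads of the smoke group. The group values were 15.5 ± 24.7 (SD, n = 3) and 2.15 ± 3.72 (SD, n = 3), with overlapping ranges and p = 0.5 by the exact two-sided permutation test. Without room air library A, the room air mean was 1.27 normalized counts, under the smoke mean, and the log2 ratio with 1 added to each mean turned from -2.39 to 0.47.

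Most stromal markers, like Cyp1b1, were highest in library A. In room air 7 of the 9 were, while Lepr and Lum had no read, and after smoke 7 of the 9 were, while Pdgfrb and Cxcl12 were highest in library B. The smoke count includes Lepr and Lum with 1 read each and Col3a1 with 3, all in library A. That was the deepest smoke library, with a size factor of 3.42. Cxcl12 had only 1 read after smoke. Reads this few do not order the libraries. Col1a1, a chain of the main fibrillar collagen of fibroblasts, had 117, 8 and 0 reads in room air libraries A, B and C, or 42.9, 3.10 and 0 normalized counts, and 18, 2 and 0 reads in smoke libraries A, B and C. Its partner chain Col1a2 had 170, 9 and 3 reads in the room air libraries and 26, 1 and 1 in the smoke libraries. The receptor Pdgfra had 27, 1 and 0 reads in room air and 6, 0 and 0 after smoke. Pdgfrb was more even, at 5.87, 1.94 and 2.40 normalized counts in room air libraries A, B and C and 2.34, 3.76 and 3.02 in smoke libraries A, B and C. The group means of the 9 stromal markers lay between 0 and 22.5 in room air and between 0.0976 and 3.35 after smoke, summed to 49.0 and 11.3, and none was called. The part of stromal RNA in the Cyp1b1 values was not tested. Such a share in 1 library was uncommon: among 389 genes with a room air mean from 10 to 20 and a single solution, the median share of the highest library was 39.8%, and 5 genes (1.29%) reached that of Cyp1b1, all highest in library A. Besides Cyp1b1 these were Aebp1, Fbln2, Grem1 and Sparc, which are named here after their values were seen, and which encode matrix or secreted proteins of connective tissue.

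**Figure D1:**
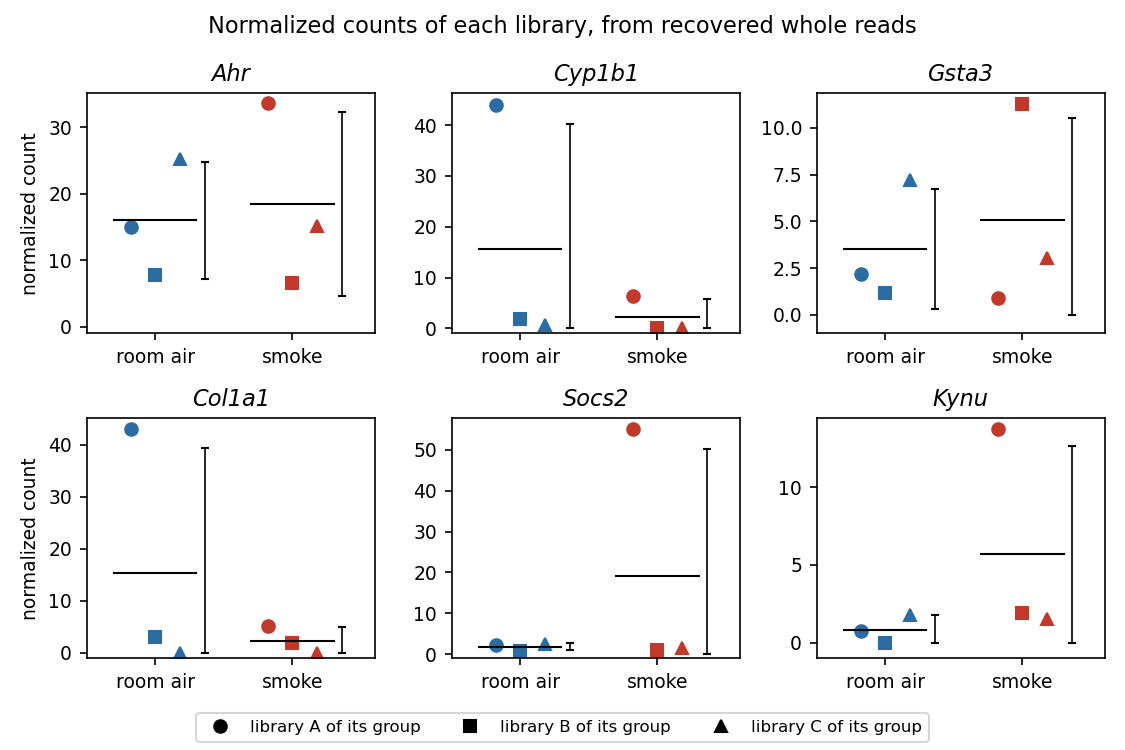
Normalized counts (y axes) of each library for Ahr, Cyp1b1 and Gsta3, for the stromal marker Col1a1 and for Socs2 and Kynu, 2 called genes of the pathway lists, in room air (blue) and cigarette smoke (red). Circles, squares and triangles are libraries A, B and C of each group, horizontal lines are means and bars are 1 SD with the lower end stopped at 0. Cyp1b1 and Col1a1 are high in room air library A at 44.0 and 42.9, while Socs2 and Kynu are high in smoke library A.

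Of the conjugating enzymes, Gstm1 was abundant and Gsta3 was near the lower limit. Gstm1, a glutathione S-transferase of the mu class (ENSMUSG00000058135.12, chromosome 3, 108012255 to 108017973, minus strand), had 876.0 in room air and 1042 after smoke by the means of the authors' deposited table. The authors' deposited table lists it at 0.25 on the log2 scale (SE 0.21, adjusted p 0.516), with a fold interval of 0.895 to 1.59. The value of Gstm1 is uncertain, because 23.1% of the 50-base stretches of its longest transcript occur in other genes, most of all Gstm2-ps1 and Gstm3. For the other members this share was at most 3.55%. Gsta3, of the alpha class (ENSMUSG00000025934.15, chromosome 1, 21240589 to 21265661, plus strand), had 6, 3 and 12 reads in room air libraries A, B and C, or 2.20, 1.16 and 7.20 normalized counts, and 3, 12 and 2 reads in smoke libraries A, B and C, or 0.878, 11.3 and 3.02. The groups overlapped, at 3.52 ± 3.23 (SD, n = 3) and 5.06 ± 5.49 (SD, n = 3), with p = 0.7 by the exact two-sided permutation test. For Gsta3 the authors' deposited table lists 0.51 on the log2 scale (SE 0.96, adjusted p 0.816, fold interval 0.386 to 5.24). The log2 ratio of its recovered means, with 1 added to each, was 0.42, and it turned to -0.62 without smoke library B.

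Ephx1, the microsomal epoxide hydrolase that turns epoxides of hydrocarbons into diols (ENSMUSG00000038776.13, chromosome 1, 180976210 to 181020904, minus strand), had 875.1 in room air and 706.2 after smoke by the means of the authors' deposited table. In the DESeq2 fit of the authors' deposited table this is -0.31 on the log2 scale (SE 0.33, adjusted p 0.633), with a fold interval of 0.513 to 1.26. Ephx1 shares exon sequence on its strand with Gm36961, so its reads are uncertain. It was also the only member with a splicing event in the JuncBASE table, which gives for each library the percent of junction reads that use a given form. The event is a choice of acceptor sites after 1 donor, with the intron from 180994046 to 180994627 as the included form and introns from 180994088, 180994001 or 180990519 to the same end as the other forms. The included intron and the one from 180994088 are annotated in GENCODE M21, in 1 and 2 transcripts, and the other 2 are not. Of the room air libraries, replicate 1 used the included form in 4% of reads, replicate 2 in 3.18% and replicate 3 in 1.31%. After smoke, replicate 1 used it in 6.67%, replicate 2 in 3.85% and replicate 3 in 0%. The highest and the lowest value were both in the smoke group. The means were 2.83% ± 1.38 (SD, n = 3) and 3.51% ± 3.35 (SD, n = 3), with p = 0.9 by the exact two-sided permutation test. On log2 odds of inclusion, limma gave a difference of -0.11 (SE 0.87) and an adjusted p of 0.957. None of 10376 events passed in that fit, while 1125 had an unadjusted p under 0.05. Among the 5933 events with a value in all 6 libraries, 23 passed, and that of Ephx1 did not (adjusted p 0.951). The coverage behind these levels is unknown. No retained intron of a member was among the 3887 in the authors' deposited rMATS table, of which 14.5% had a false discovery rate under 0.05.

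**Figure D2:**
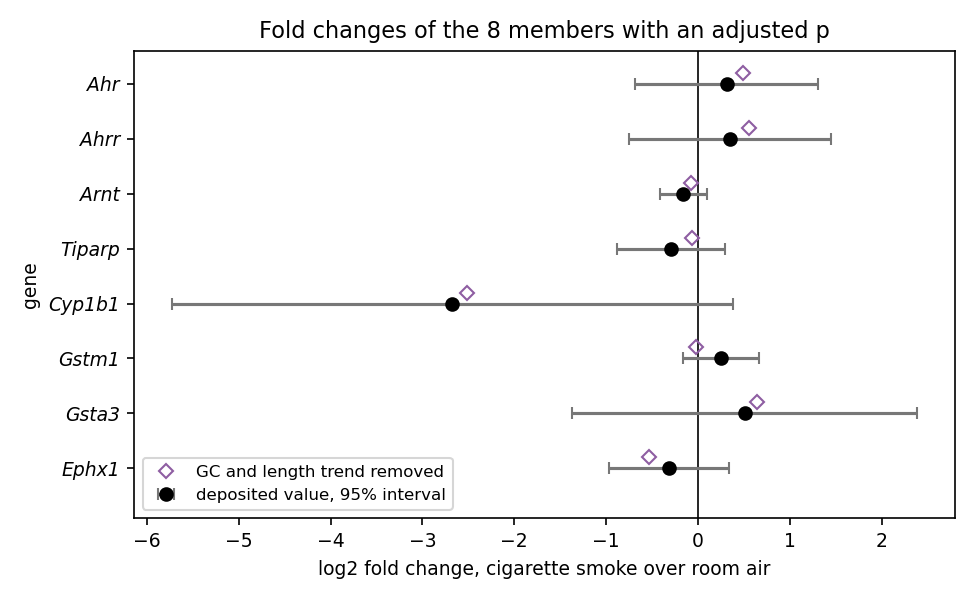
Log2 fold change of cigarette smoke over room air (x axis) for the 8 members with an adjusted p. Filled circles with bars are values of the authors' deposited table with 95% intervals from its standard errors, and open diamonds are the values after removal of the trend in GC content and transcript length. Every interval includes 0, and that of Cyp1b1 is the widest.

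Levels can be compared between genes only per length. Divided by the length of the longest GENCODE M21 transcript, the order in room air was Gstm1 at 679.6 normalized counts per kilobase, Ephx1 at 502.7, Arnt at 78.2, Tiparp at 63.6, Ahrr at 7.39, Cyp1b1 at 3.03, Ahr at 2.88, Gsta3 at 1.26 and Cyp1a1 at 0. Gstm1 and Ephx1 stood above 98.3% and 97.5% of all listed genes on this scale, and Ahr above 33.4%. After smoke only the ranks of Cyp1b1, Ahr and Gsta3 differed from this order. With the median transcript length in place of the longest, Tiparp stood at 322.4 and Arnt at 129.9 normalized counts per kilobase in room air, Ahrr at 94.0, Ahr at 13.9 and Cyp1b1 at 4.57, so Arnt and Tiparp changed places, as did Cyp1b1 and Ahr. By either length the repressor Ahrr was above the receptor in both groups, by the longest transcript at 9.17 against 3.32 normalized counts per kilobase after smoke. Whether these 2 levels differ beyond the spread between libraries was not tested, since no library values of Ahrr were recovered.

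Several members stood far from the wider set of libraries. The table holds a mean over 24 libraries, of which 18 are not analysed here and not described in the labels used here. From the 3 means, the average over those 18 can be computed. For Tiparp it was 1977 normalized counts, 8.18 times the average of the 2 group means, a ratio above that of 95.5% of the genes tested. The same ratio was 8.12 for Cyp1b1, 6.60 for Ahr and 5.37 for Gsta3, which stood above 95.5%, 94.8% and 94.0% of the genes tested. It was 1.63 for Gstm1, 1.50 for Arnt and 0.854 for Ahrr. Ephx1 had the lowest ratio of the 8, 0.544, with 430.5 normalized counts in the others against 875.1 and 706.2 in room air and smoke. These ratios are a description, with no spread between libraries.

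**Figure D3:**
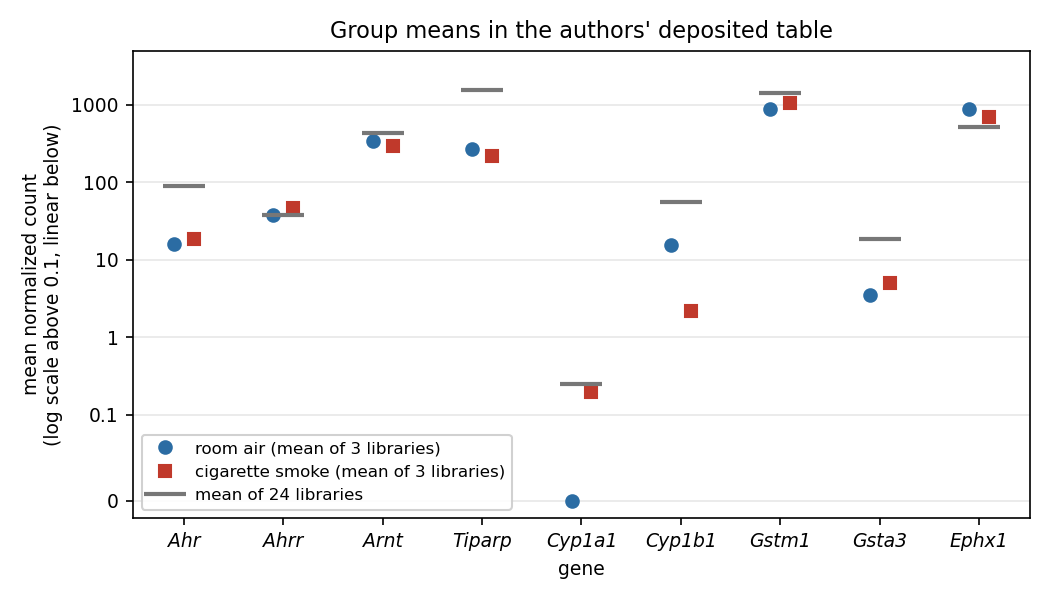
Mean normalized count (y axis, logarithmic above 0.1 and linear below) of the 9 members in room air (blue circles), cigarette smoke (red squares) and over 24 libraries (grey bars), from the authors' deposited table. The 2 group means lie close together for every gene except Cyp1b1, at 15.5 and 2.15, and Cyp1a1, which is near 0, while the 24-library mean of Tiparp, 1544, is far above both of its group means.

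Fold changes across this table varied with the GC content and length of transcripts, and the members lay on both sides of that trend. Gstm1 and Ephx1 have short, GC-rich transcripts of 1289 and 1741 nucleotides, and genes in the same decile of each property had a median log2 fold change of 0.28 and 0.26. The value of Gstm1, 0.25, was close to that of its bin, and after the trend was removed it was -0.02 with an adjusted p of 0.994. Ephx1 lay below its bin, and its log2 fold change without the trend was -0.53 with an adjusted p of 0.587. For the 6 other members tested, the bins had medians from -0.23 for Tiparp to -0.09 for Arnt. Without the trend the log2 fold changes were -0.06 for Tiparp, -0.08 for Arnt, 0.49 for Ahr and 0.56 for Ahrr, and no member had an adjusted p under 0.05.

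Around the members, 8 lists of 150 other genes of the pathway were examined, of which 124 were listed and 101 had an adjusted p. After smoke, 5 were called higher and 5 lower at an adjusted p under 0.05 of the authors' deposited table, or 9.90% of the 101 against 7.69% of all genes tested, which is near the background. Their median log2 fold change was 0.02, beside -0.003 over all genes tested. The count called moved with the setting, as did that over all genes: 18 list genes were called at an adjusted p under 0.1, where 12.8% of all genes were, and 3 after removal of the trend in GC content and length, where 1.27% were, namely Socs2, Kynu and Akr1b3.

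In the receptor complex, its partners and coactivators, 19 genes were tested and 4 were called, 1 higher and 3 lower, with a list median of -0.01. The called share was 21.1%, against 7.69% of all genes tested, and 10 of the 19 had an unadjusted p under 0.05, against 22.8%. At an adjusted p under 0.1 the list had 8, where 12.8% of all genes were called. Without the trend it had 0, where 1.27% were. Whether this list differs from all genes was not tested. The histone acetyltransferases Crebbp and Ep300, coactivators of many factors, fell by 0.55 (SE 0.13) and 0.37 (SE 0.12) on the log2 scale, for which the authors' deposited table gives adjusted p 0.00143 and 0.0369. The nuclear receptor coactivator Ncoa7 fell by 0.44 on the log2 scale of the authors' deposited table (SE 0.14, adjusted p 0.0342). None of these 3 had an adjusted p under 0.05 without the trend. Hsp90ab1 and Hsp90aa1, the chaperones of the receptor, had log2 fold changes of 0.23 (adjusted p 0.0732) and -0.08 (adjusted p 0.885) in the authors' deposited table and were not called.

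Among 14 tested genes known as receptor targets, other than members, 1 was called higher and 1 lower, and the median was -0.03. The called share was 14.3%, against 7.69% of all genes tested, and 4 of the 14 had an unadjusted p under 0.05. Socs2, a suppressor of cytokine signalling, averaged 1.79 normalized counts in room air and 19.2 after smoke, and the authors' deposited table lists it at 3.50 on the log2 scale (SE 1.02, adjusted p 0.0151). Its recovered reads numbered 6, 2 and 4 in room air libraries A, B and C and 188, 1 and 1 in smoke libraries A, B and C. One library held 95.7% of the normalized counts of the smoke group, and the other smoke libraries, at 0.94 and 1.51, lay within the room air range of 0.774 to 2.40. Without smoke library A, the log2 ratio with 1 added to each mean was -0.33. Xdh, xanthine dehydrogenase, fell by 0.56 on the log2 scale of the authors' deposited table (SE 0.19, adjusted p 0.0444), and its adjusted p was 0.407 without the trend. The targets of highest 24-library mean that were not called were the oxidative stress factor Nfe2l2 and the AP-1 family gene Fosl2, at -0.19 and 0.18 on the log2 scale of the authors' deposited table. Cyp1a2, Aldh3a1 and Il22 of this list were not listed in the table.

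The list of tryptophan enzymes, most of which form or break down compounds known as receptor ligands, had 5 genes tested, of which 2 were called higher, and a median of 0.41. The called share of these few genes was 40%, against 7.69% of all genes tested, and 3 of the 5 had an unadjusted p under 0.05. Kynu, kynureninase, averaged 0.845 and 5.72 normalized counts, and the authors' deposited table lists it at 3.14 on the log2 scale (SE 0.95, adjusted p 0.0214). Its recovered reads numbered 2, 0 and 3 in room air libraries A, B and C and 47, 2 and 1 in smoke libraries A, B and C, and without smoke library A the log2 ratio with 1 added to each mean went from 1.86 to 0.55. Wars, the tryptophanyl-tRNA synthetase, which charges tRNA for protein synthesis, was the median gene of the list and rose by 0.41 on the log2 scale of the authors' deposited table (SE 0.12, adjusted p 0.0142), and its adjusted p was 0.286 without the trend. Il4i1 and Kmo, at 0.91 and 0.16 on the log2 scale of the authors' deposited table, were not called. Il4i1, an amino acid oxidase that yields receptor ligands, had recovered values of 12.5, 12.8 and 11.4 in room air and 17.9, 29.1 and 24.2 after smoke, so its groups did not overlap, yet its adjusted p in the authors' deposited table was 0.104.

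The drug-metabolizing enzymes and transporters were mostly not called. Of 24 phase I enzymes tested, Akr1b3, aldose reductase, was the only one called, and it rose from 631.0 to 884.6 normalized counts, or by 0.49 on the log2 scale of the authors' deposited table (SE 0.11, adjusted p 0.00173, and 0.000334 without the trend). Akr1a1 and Por, the reductase that feeds electrons to cytochromes P450, were at 0.22 and 0.12 on that scale of the authors' deposited table and were not called. Of 14 glutathione S-transferase genes tested besides the members, Hpgds, which makes prostaglandin D2, fell by 0.65 on the log2 scale of the authors' deposited table (SE 0.21, adjusted p 0.0313), and its adjusted p was 0.334 without the trend. Gsto1 and Mgst1 were at 0.02 and 0.30 there, in the authors' deposited table, and were not called. Of the 24 phase I enzymes 4.17% were called and of the 14 glutathione S-transferase genes 7.14%, against 7.69% of all genes tested. An unadjusted p under 0.05 was found for 4 and 2 of them. None of 10 other conjugating enzymes, 13 transporters and 6 nuclear receptors was called at an adjusted p under 0.05 in the authors' DESeq2 table, and 0, 0 and 3 of them had an unadjusted p under 0.05. By the authors' deposited table, the 2 of each list with the highest 24-library mean were Ugt1a7c and Ugt1a6a, which share exons and are uncertain, with log2 fold changes of -0.12 and -0.20, Abcc1 and Slco3a1 at -0.15 and 0.26, and Nr3c1 and Nr1h2 at -0.47 and 0.33.

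**Figure D4:**
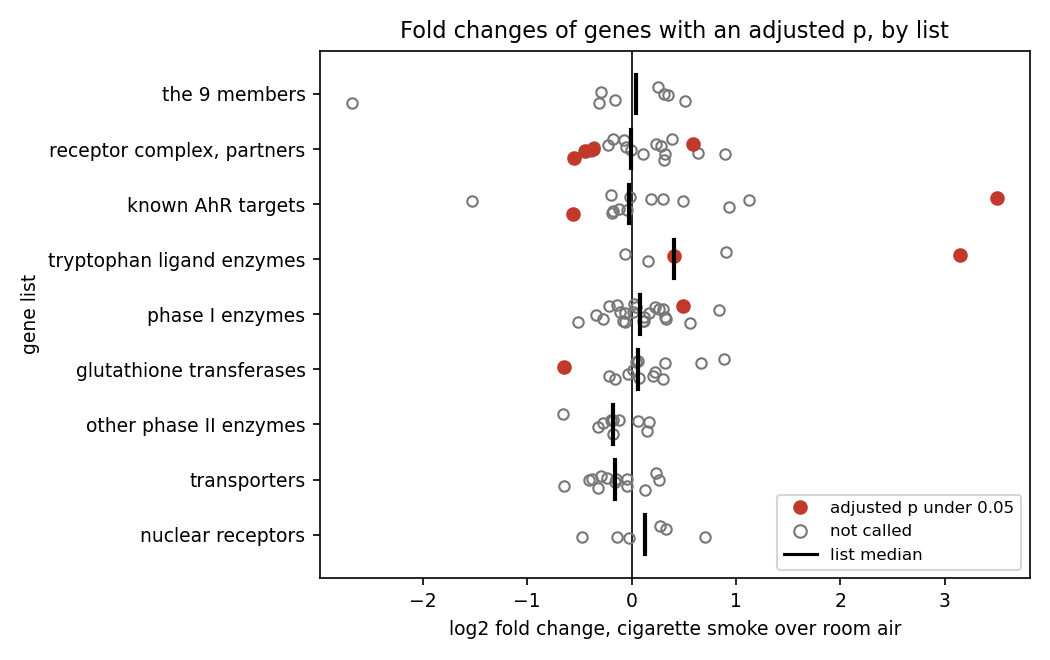
Log2 fold change of cigarette smoke over room air in the authors' deposited table (x axis) for the genes with an adjusted p among the 9 members and in each of 8 pathway lists (rows, members left out of the lists). Filled red points have an adjusted p under 0.05, open points do not, and black bars are list medians. No member is filled, and the 2 red points far to the right are Socs2 and Kynu, at 3.50 and 3.14.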

How the data were processed

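The authors deposited group means of size-factor-normalized counts (signal), a log2 fold change headed log2FcMAP with its standard error, a score headed stat, p-values and adjusted p-values. Whether the fit shrank the fold changes is not stated, and the intervals given here are built from them as deposited. The submitters' processing notes name STAR, DESeq2, SAMtools 1.9, bedtools 2.27.1 and mm10, with no roles. The authors deposited percent inclusion per library from JuncBASE and an rMATS table, whose 6 columns of per-sample values were not used, since its sample sets are not named. The authors' merged annotation (other) served to assign loci. The deposited file leaves the adjusted p-value empty for 7291 genes that have a p-value, all at 24-library means of at most 8.52.

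The planned expression test over all genes was not run, because no library values were given, and it was replaced by the authors' comparison. Exact permutation tests were run only on the recovered values of Ahr, Cyp1b1 and Gsta3. Whole reads were recovered from low means after the data had been seen, a method tested on simulated data. Inclusion was compared with limma 3.58.1 (R 4.3.3) on log2((p + 1)/(100 - p + 1)). The GC and length trend was fitted by natural splines with 4 degrees of freedom (patsy 1.0.2), weighted by the deposited standard errors, with adjustment by Benjamini-Hochberg. Intervals are 95%, and they and the floor of 3 reads cover only fit and counting error. Genes of the lists were named if called at 0.05, or among the 2 with the highest 24-library mean of the others. Members and lists were chosen with earlier results of these data known. Of the list genes called, 1 is not reported here by name.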

Additional observations from a re-analysis of the deposited data

How the results depend on the processing

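The count of members called was 0 under each of the 6 other thresholds, filters and corrections in the report, and without the trend in GC content and length 7 of 8 single fold changes kept their direction. The exception was Gstm1, at -0.018. Adding a pseudocount to both means or removing the median could hardly turn a direction. The 10 list genes called became 18 at an adjusted p under 0.1, 3 under 0.01 and 3 without the trend. Ranks of level per length were kept by 5 of 9 members with the median transcript length. The Ephx1 event's difference of -0.11 log2 odds was 0.061 with a pseudocount of 5, and ran from -0.74 to 0.78 when each replicate was left out, 0.12 without room air replicate 1 and 0.78 without smoke replicate 3, with adjusted p from 0.425 to 0.995. With a replicate block it was -0.11 (adjusted p 0.947) and the count of events stayed at 0. Same-numbered libraries had correlations of 0.018, -0.040 and -0.089, and not every library correlated best with its own number. Correlations this weak cannot show whether same-numbered libraries were paired. Leaving out smoke replicate 3 raised the events called from 0 to 1064, and keeping only events with a value in all 6 libraries raised them to 23. Log2 ratios from whole reads, an alternative added after seeing the data, with each library left out, ran from -0.52 to 0.65 for Ahr, -4.05 to 0.47 for Cyp1b1, -0.62 to 1.18 for Gsta3, -0.33 to 3.39 for Socs2 and 0.55 to 2.30 for Kynu. Expression fits with other size factors, a block or a library left out were not run, as no library values were given. For members above a mean of about 20 the spread between libraries is unknown.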

Other observations

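The recovered reads allow the same look at other genes of low mean. Of 502 genes called higher after smoke in the authors' deposited table, 29 had means of at most 20 in both groups and a single solution in each. In 14 of these 29 the 3 smoke values lay above all room air values, and in 12 smoke library A held 80% or more of the normalized counts of its group. The 80% was chosen after the values of Socs2 and Kynu were seen. Of 427 genes called lower, 3 had such reads, and in all 3 the smoke values lay below all room air values. Of all 958 genes with an adjusted p and such reads, called or not, 11.2% had every smoke value above room air, 5.85% had every one below, and 8.87% had 80% or more of the smoke group in library A. The calls rest on the same library values, so the counts among called genes are a description and nothing is read from their distance to these shares.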
